A study of Homo sapiens with 12 samples.

Results

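The 9 genes described here mark the oligodendrocyte lineage, the glia that wrap axons in myelin. They are OLIG1, OLIG2, SOX10, SOX8 and MYRF (transcription factors), PDGFRA and GPR17 (receptors), and CNP and MBP (proteins of the myelinating cell). They were chosen by name, and all 9 were found among the 59653 gene symbols of the count table. The RNA for this RNA-seq table came from human neurons that had been grown from induced pluripotent stem cells (iPSC), with IMR-90, a fibroblast line, as their origin. A negative control siRNA went to the cells of the 6 siNC libraries, and an siRNA that targets ZCCHC17, a zinc finger RNA-binding protein, to those of the 6 siZCC libraries. Nothing in the labels says whether the 6 libraries of a group came from separate cultures, so p-values measure the spread between these libraries, which may be technical. The labels also carry the letters NPC without saying what they mean. The comparison asks what the ZCCHC17 siRNA changed.

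As background, oligodendrocytes arise from precursors that depend on OLIG2 and carry PDGFRA, the receptor for platelet-derived growth factor A, which drives their division. SOX10 is the factor that all stages of the lineage share and it acts together with its close relative SOX8. As precursors differentiate they pass through a stage marked by GPR17, a G protein-coupled receptor, then switch on MYRF, which activates myelin genes such as MBP. Several of these genes are also used outside the lineage: OLIG1 and OLIG2 in ventral neural progenitors, SOX8 in astroglia, PDGFRA in fibroblasts, and CNP at lower levels in many cells. MBP has an upstream start that gives the Golli transcripts, which neurons and immune cells also make.

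The siNC libraries held 90755953 to 120023356 counts each, and the siZCC libraries 76115083 to 105389055. The targeted transcript stood at 53.97 to 60.97 CPM (counts scaled to library size, here with TMM factors that correct for composition) in siNC and at 9.37 to 10.6 CPM in siZCC. Libraries of each group fell into 2 kinds: 3 of each group held 449 to 1512 counts of IL1B and 3 held 2 to 12. The kinds are siNC replicates 2, 3 and 6 and siZCC replicates 1, 4 and 5 on the high side, and the others on the low side. Among markers of other cells, the summed level was 3019 to 3427 CPM for 10 neuron markers in siNC, 6001 to 6373 CPM for 10 neural progenitor markers and 2109 to 2346 CPM for 10 astrocyte markers. In siZCC these sums were 2794 to 3149, 5967 to 6481 and 2192 to 2531 CPM. For 9 microglia markers it was 1.65 to 3.16 CPM in siNC and 1.86 to 2.84 CPM in siZCC. Both groups thus held transcripts of neurons, progenitors and astroglia.

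Read as the mark of a cell type, the name oligodendrocyte lineage went against these levels, and the 9 genes are called lineage genes here by name only. CNP and SOX8, both also used outside the lineage, took 96.4% ± 0.369 of the summed CPM of the 9 genes in siNC (SD, n = 6) and 96.3% ± 0.337 in siZCC (SD, n = 6). The other 7 genes together came to 12.4 ± 1.33 CPM in siNC against 13.0 ± 1.50 in siZCC (SD, n = 6 each). SOX10, the defining factor of the lineage, was at or near 0. Defining markers of mature cells were as low: over all 6 siNC libraries MAG had 2 counts, MOG 11 and OPALIN 11, and over the 6 siZCC libraries 1, 12 and 5 (these 3 genes were chosen after their values were seen).

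To compare genes with each other, levels were divided by the length of the union of their exons in GENCODE v29 (GRCh38). In siNC the order was CNP at 36.1 ± 0.802 CPM per kilobase, SOX8 at 14.5 ± 0.546, OLIG1 at 1.43 ± 0.219, OLIG2 at 0.758 ± 0.123, MYRF at 0.425 ± 0.0261 and GPR17 at 0.245 ± 0.0447 CPM per kilobase (SD, n = 6 each). MBP at 0.0557 ± 0.0113, PDGFRA at 0.0404 ± 0.00769 and SOX10 at 0.00581 ± 0.00633 CPM per kilobase closed it (SD, n = 6 each). The ranges of neighbours in this order did not meet, except those of MBP and PDGFRA, which overlapped. The exon union of MBP is 18.6 kb, since it joins many transcripts, and a division by it gives a lower value than a division by one transcript would. Among the 23354 tested genes with a length, CNP stood at percentile 95.96 and SOX8 at 86.1, OLIG1 at 42.5, and MBP and PDGFRA at 3.80 and 2.28.

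**Figure D1:**
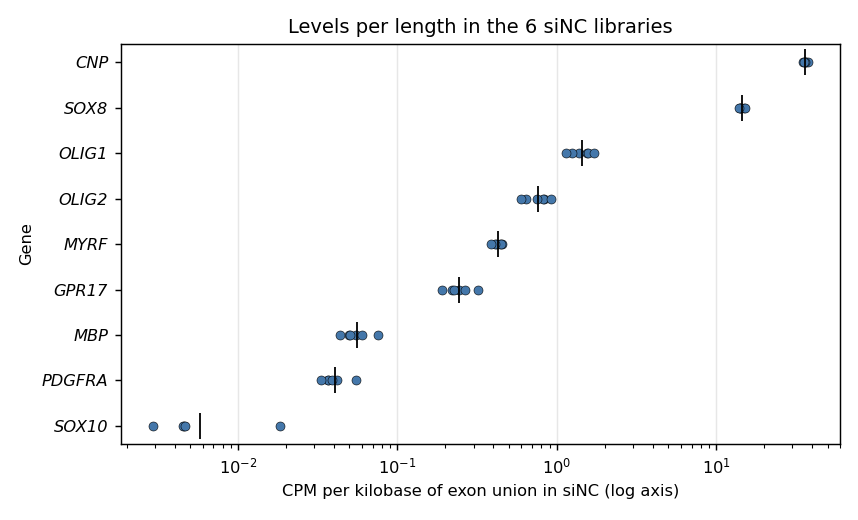
Level of each gene in the 6 siNC libraries, in CPM per kilobase of exon union on a log axis; points are libraries, the tick is the mean, and 1 SOX10 library with 0 counts is not drawn. CNP and SOX8 stand above 10 CPM per kilobase, the other 7 genes below 2.

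Promoter sequences from RefSeq (GRCh38.p14; 250 bases before and 50 after a start) were matched for 4 of the 9 genes: CNP, GPR17, MBP and PDGFRA. Those of CNP, the most abundant member, and of PDGFRA, the tested member with the largest change, are shown. Each gene has 2 starts, and the counts, which are per gene, do not say which start was used. Capitals mark ACAAT, letters that SOX factors bind, and CAGCTG, an E-box of the kind bound by bHLH factors such as the OLIG proteins; both strands were searched, and for ACAAAG, a SOX word too, as well.
CNP, chr17:41966545-41966844, plus strand: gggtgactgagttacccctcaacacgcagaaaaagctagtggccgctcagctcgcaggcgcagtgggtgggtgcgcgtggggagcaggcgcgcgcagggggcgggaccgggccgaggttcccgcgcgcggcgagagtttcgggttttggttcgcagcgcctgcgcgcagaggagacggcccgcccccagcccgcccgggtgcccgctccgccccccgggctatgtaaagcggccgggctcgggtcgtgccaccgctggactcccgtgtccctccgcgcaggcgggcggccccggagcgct
CNP, chr17:41967547-41967846, plus strand: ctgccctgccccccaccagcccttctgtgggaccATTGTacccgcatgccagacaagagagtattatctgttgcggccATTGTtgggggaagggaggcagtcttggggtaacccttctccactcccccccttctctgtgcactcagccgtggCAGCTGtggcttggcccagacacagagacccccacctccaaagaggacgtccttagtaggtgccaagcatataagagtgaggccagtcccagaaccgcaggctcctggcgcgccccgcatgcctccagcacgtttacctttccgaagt
PDGFRA, chr4:54229043-54229342, plus strand: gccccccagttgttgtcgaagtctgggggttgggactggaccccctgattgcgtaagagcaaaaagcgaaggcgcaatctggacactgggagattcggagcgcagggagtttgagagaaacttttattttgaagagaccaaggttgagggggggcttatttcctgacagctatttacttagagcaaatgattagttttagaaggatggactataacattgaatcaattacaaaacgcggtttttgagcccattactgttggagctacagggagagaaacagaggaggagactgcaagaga
PDGFRA, chr4:54233710-54234009, plus strand: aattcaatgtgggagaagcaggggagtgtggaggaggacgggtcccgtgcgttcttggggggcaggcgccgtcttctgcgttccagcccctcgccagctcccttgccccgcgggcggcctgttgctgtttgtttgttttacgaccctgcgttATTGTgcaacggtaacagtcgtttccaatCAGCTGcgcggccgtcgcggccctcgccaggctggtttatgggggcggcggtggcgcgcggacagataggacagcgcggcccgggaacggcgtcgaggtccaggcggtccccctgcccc
The upstream entries of CNP and PDGFRA held none of the 3 words. The downstream entry of CNP held ACAAT at 2 places and CAGCTG at 1, and that of PDGFRA held each at 1 place. Of the 35116 entries of this length, 27.4% held ACAAT, 16.1% ACAAAG and 17.9% CAGCTG on either strand. GC content was 74.7% and 60.3% in the CNP entries and 47% and 66.7% in those of PDGFRA. A match of letters is a description of the sequence, not a site that a factor was seen to use.

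Over the whole table, 22.2% of the 24671 genes tested were called (edgeR's quasi-likelihood test, adjusted p below 0.05 after Benjamini-Hochberg adjustment over all of them), 11.4% higher and 10.8% lower in siZCC, and 34.4% had an unadjusted p under 0.05. Of the 9 lineage genes 8 were tested, and all 8 had at least 14 counts in every library, so none entered through a single group. SOX10 was below the filter. Of the 8, SOX8 rose and PDGFRA fell, or 25%, a share near that of all genes tested, and 6 did not pass. At an unadjusted p under 0.05, MYRF joined SOX8 on the higher side. The median log2 fold change of the 8 was 0.02, beside -0.0016 over all genes tested. In none of the 9 genes were the groups fully apart, as they were in 9.74% of all genes tested.

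**Figure D2:**
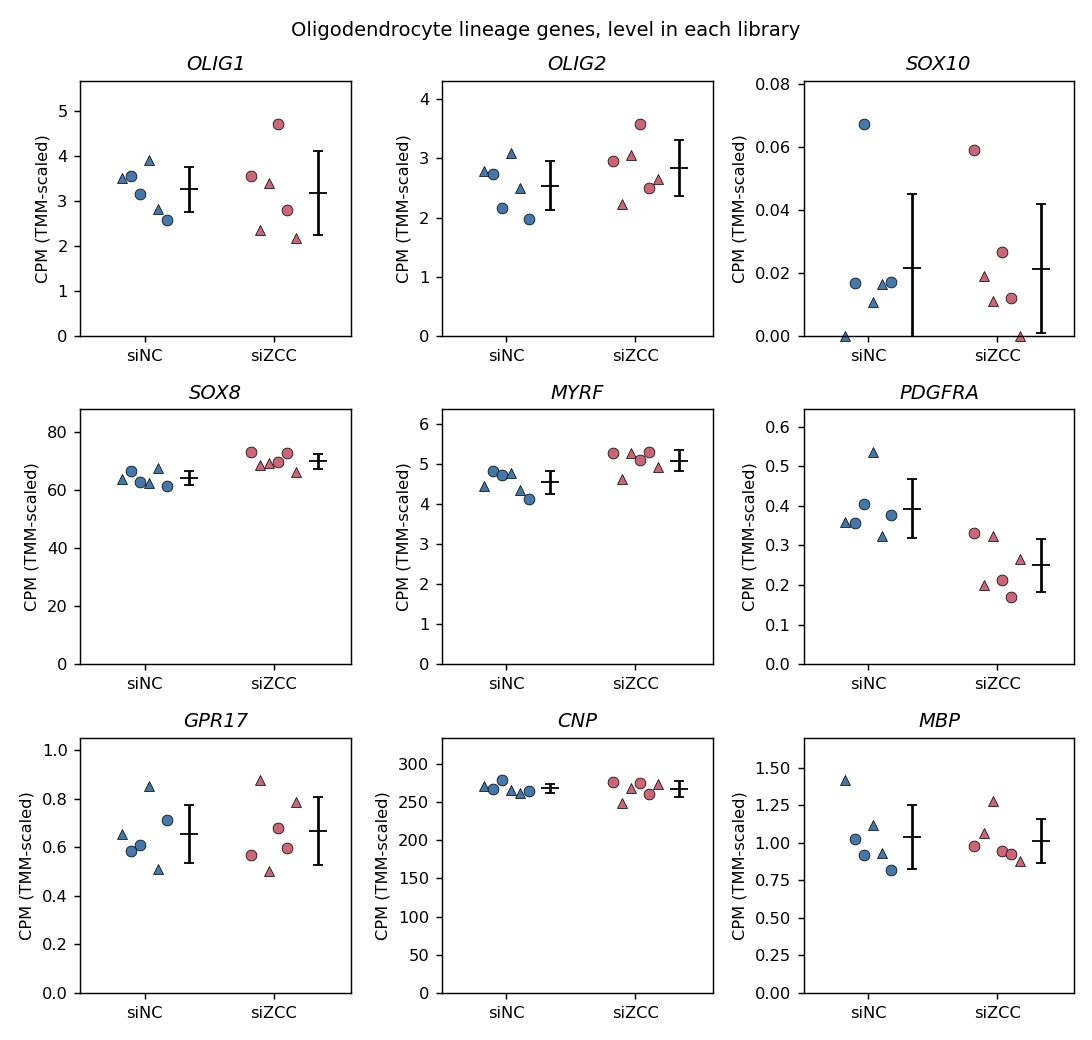
Level of each of the 9 genes in every library, in TMM-scaled CPM from 0; circles are libraries with high IL1B, triangles those with low IL1B, and bars to the right give the mean ± SD (n = 6). The PDGFRA points of siZCC lie mostly below those of siNC, the SOX8 and MYRF points mostly above, and the other genes overlap widely.

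Among the transcription factors, OLIG1 and OLIG2, a pair of bHLH factors that specify the lineage, were measured at low counts. OLIG1 had 301 to 420 counts per library in siNC and 206 to 354 in siZCC. Its level in siNC replicates 1 to 6 was 3.52, 3.56, 3.15, 3.91, 2.82 and 2.59 CPM, and in siZCC replicates 1 to 6 it was 3.56, 2.37, 3.40, 4.72, 2.80 and 2.18 CPM. The siZCC values spread on both sides of the siNC range, with 2 below it and 1 above. The log2 fold change of OLIG1 was -0.04 (SE 0.155, 95% interval -0.35 to 0.26; adjusted p 0.877 in edgeR's quasi-likelihood test). Its coefficient of variation was 15.3% in siNC and 29.5% in siZCC, where counting error in siNC alone gives 5.24%, so libraries differed by more than counting.

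OLIG2 in siNC replicates 1 to 6 stood at 2.78, 2.74, 2.16, 3.08, 2.50 and 1.98 CPM. In siZCC replicates 1 to 6 it stood at 2.96, 2.23, 3.06, 3.59, 2.50 and 2.66 CPM. Only siZCC replicate 4 lay above all siNC libraries. The log2 fold change was 0.16 (SE 0.118, 95% interval -0.08 to 0.39; adjusted p 0.384 in edgeR's quasi-likelihood test). In the 6 libraries with high IL1B the log2 fold changes were 0.25 for OLIG1 and 0.39 for OLIG2. In the 6 with low IL1B they were -0.37 and -0.07. With 3 libraries per group on each side, neither gene passed on either side (adjusted p 0.146 to 0.793), and the difference between the sides was not tested.

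OLIG1 and OLIG2 moved together from library to library within the groups. They lie on the plus strand of chromosome 21, OLIG2 at 33025845 to 33029196 and OLIG1 at 33070144 to 33072420, with 40947 bases between them. Over the 12 libraries, deviations from the group mean of log2 CPM correlated with Pearson's r of 0.846 (permutation p 0.0010, adjusted over the 28 pairs of tested members 0.0280). Spearman's rho was 0.818 (permutation p 0.00197, adjusted 0.0552). Without the 2 libraries farthest from the median of OLIG1, r was 0.904. It was 0.875 within siNC and 0.884 within siZCC, and 0.966 and 0.870 among the libraries with high and low IL1B. The libraries share depth and composition effects across many genes, and the part of these in the correlation was not tested. Of the other 27 pairs, the next by p was SOX8 with GPR17 (r -0.682, adjusted permutation p 0.330), and none passed.

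**Figure D3:**
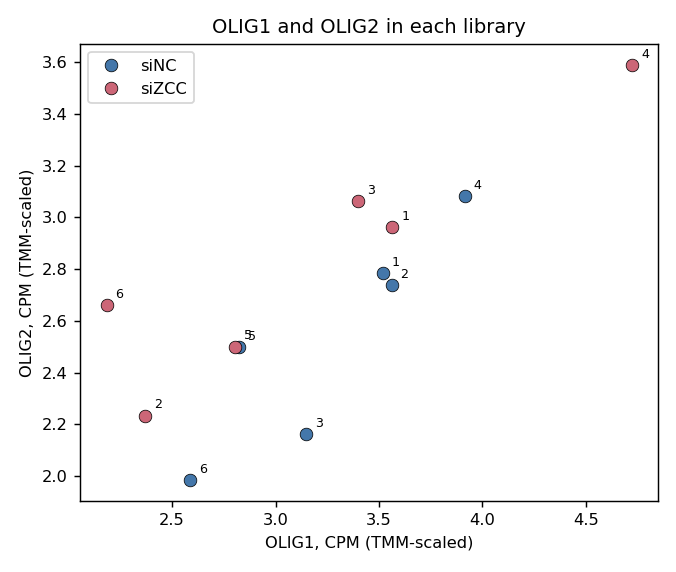
OLIG2 against OLIG1 in each of the 12 libraries, both axes in TMM-scaled CPM and not starting at 0; numbers are replicates. Libraries high in OLIG1, such as replicate 4 of both groups, were high in OLIG2 too.

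SOX10, the HMG-box factor that defines the lineage and serves in the neural crest (chromosome 22, 37970686 to 37987422, minus strand), had 0, 2, 8, 1, 2 and 2 counts in siNC replicates 1 to 6. In siZCC replicates 1 to 6 it had 5, 2, 1, 2, 1 and 0 counts. The groups thus held 15 and 11 counts in all, each level between 0 and 0.0675 CPM. A count of 0 allows up to 3 counts, or 0.0269 CPM in siNC replicate 1 and 0.0318 CPM in siZCC replicate 6, for counting error only. A difference was not detectable at this depth and no fold change is given. SOX10 also shares 89 exon bases, on the opposite strand, with POLR2F, a polymerase subunit gene at 39.8 ± 1.65 CPM in siNC (SD, n = 6).

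SOX8, the close relative of SOX10, was measured far more deeply, at 5206 to 8110 counts per library. It lies on the plus strand of chromosome 16, at 981808 to 986979. In siNC replicates 1 to 6 it stood at 63.7, 66.4, 62.9, 62.5, 67.5 and 61.3 CPM. The siZCC replicates, in the same order, had 73.1, 68.5, 69.2, 69.5, 72.8 and 66.3 CPM. All siZCC libraries but replicate 6 lay above the highest siNC library. SOX8 rose by a log2 fold change of 0.13 (SE 0.0324, 1.09-fold; adjusted p 0.0104 in edgeR's quasi-likelihood test), from 64.1 ± 2.42 to 69.9 ± 2.60 CPM (SD, n = 6 each). The call was lost once the fit was corrected for GC content and length (log2 fold change 0.08, adjusted p 0.0816), and in the 6 libraries with low IL1B (0.07, adjusted p 0.344), while the 6 with high IL1B gave 0.17 (adjusted p 0.0350).

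MYRF, the membrane-bound factor that turns on myelin genes (chromosome 11, 61752642 to 61788518, plus strand), was at 382 to 569 counts per library. In siNC replicates 1 to 6 it stood at 4.45, 4.82, 4.72, 4.79, 4.36 and 4.12 CPM. For siZCC replicates 1 to 6 the values were 5.29, 4.63, 5.28, 5.10, 5.30 and 4.94 CPM. Here too 5 of 6 siZCC libraries lay above every siNC library. The log2 fold change was 0.16 (SE 0.0582, 95% interval 0.05 to 0.28), with an adjusted p of 0.0535 in edgeR's quasi-likelihood test, just outside the threshold. The libraries with high and low IL1B gave 0.20 and 0.13 (adjusted p 0.189 and 0.415). It passed with DESeq2's Wald test (adjusted p 0.0316), without siNC replicate 2 (0.0438) or siZCC replicate 2 (0.0266) in edgeR, and when only genes with a mean count of at least 50 were tested (0.0403), and moved to 0.11 with the GC content and length correction (0.143). MYRF shares 400 exon bases, on the opposite strand, with TMEM258, whose level was 23.4 ± 0.887 CPM in siNC against 24.0 ± 1.64 in siZCC (SD, n = 6 each).

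Of the receptors, PDGFRA (chromosome 4, 54229097 to 54298247, plus strand) gave the largest fitted change of the 8 genes tested, at a low level. It had 40, 42, 48, 49, 39 and 44 counts in siNC replicates 1 to 6, and 28, 21, 29, 16, 14 and 25 in siZCC replicates 1 to 6. In CPM this was 0.358, 0.356, 0.405, 0.536, 0.325 and 0.378 in siNC. In siZCC it was 0.330, 0.200, 0.323, 0.214, 0.170 and 0.265 CPM. Of the 6 siZCC libraries 5 lay below the lowest siNC library, and replicate 1 lay just above it. PDGFRA fell by 0.64 on the log2 scale (SE 0.184, adjusted p 0.0194 in edgeR's quasi-likelihood test), to 64.2% of the control level. Leaving out each library in turn kept the call in all 12 fits (adjusted p 0.0140 to 0.0469). The libraries with high and with low IL1B gave -0.67 and -0.62, with adjusted p of 0.158 and 0.205 at 3 libraries per group. PDGFRA shares 1533 exon bases with AC058822.1 on the same strand, a gene listed at 0 counts in all 12 libraries, and how far reads of these bases were lost to both genes was not tested. In these bulk libraries, fewer cells carrying a transcript and less of it per cell cannot be told apart.

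PDGFRA also marks fibroblasts, and markers of fibroblasts and pericytes were read beside it. Of 12 such genes 11 were tested, and 1 was higher (PDGFRB) and 5 lower (ACTA2, RGS5 and, named after their values were seen, FOXC1, DCN and LUM), with a median log2 fold change of -0.22. The share called was 54.5%, beside 22.2% of all genes tested. ACTA2, smooth muscle actin, fell from 174 to 241 CPM in siNC (median 216) to 116 to 164 CPM in siZCC (median 149). RGS5, a pericyte gene, fell by 0.31 on the log2 scale (SE 0.0670). COL1A1, the chain of type I collagen, varied too widely to call, with 69.8 to 296 CPM in siNC and 29.8 to 142 CPM in siZCC. The list's summed level was 375 to 660 CPM in siNC and 298 to 472 CPM in siZCC, so the groups overlapped, and none of the 12 markers was at 0 in all libraries. The part of such cells in the fall of PDGFRA was not tested. Without siNC replicate 4, siNC replicate 6 or siZCC replicate 4, each in turn, 3 of these markers were called, 1 higher and 2 lower, as they were in the libraries with high IL1B, while those with low IL1B gave 1 higher and 1 lower.

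The other genes of the PDGF pathway moved in both directions. PDGFRB, the sister receptor and a member of the fibroblast and pericyte list too, was at 78.5 to 86.4 CPM in siNC (median 84.6) and 98.7 to 125 CPM in siZCC (median 110), with no overlap. It rose by 0.42 (log2 fold change, SE 0.0498; adjusted p 2.25e-05 in edgeR's quasi-likelihood test). PDGFC, a ligand of PDGFRA, rose by 0.14 (SE 0.0416), and PDGFD, a ligand of PDGFRB, fell by 0.56 on the log2 scale (SE 0.0829). PDGFD went from 4.23 to 6.13 CPM in siNC to 3.36 to 3.76 CPM in siZCC. PDGFA, the ligand that drives precursors to divide, stood at 5.78 ± 0.158 and 5.41 ± 0.227 CPM (SD, n = 6 each) and did not pass (log2 fold change -0.10, adjusted p 0.165). In all, 2 of these 5 genes were higher and 1 lower, and their median was -0.10. The share called was 60% of this short list, beside 22.2% of all genes tested.

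GPR17 had 61 to 83 counts per library in siNC and 45 to 92 in siZCC. Its level was 0.654, 0.585, 0.608, 0.853, 0.508 and 0.713 CPM in siNC replicates 1 to 6. The same replicates of siZCC had 0.567, 0.874, 0.501, 0.681, 0.595 and 0.784 CPM. The siZCC values ran from just below the siNC range to just above it. The log2 fold change was 0.05 (SE 0.151, 95% interval -0.25 to 0.34; adjusted p 0.868 in edgeR's quasi-likelihood test). GPR17 lies at 127645864 to 127652639 on chromosome 2 and shares 196 exon bases with LIMS2, on the opposite strand. LIMS2 itself was at 11.4 ± 1.91 CPM in siNC against 7.68 ± 0.595 in siZCC (SD, n = 6 each), and how far its reads enter GPR17 was not tested.

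Of the genes of the myelinating cell, CNP encodes a phosphodiesterase of non-compact myelin that also binds tubulin. It was the most abundant of the 9 genes per length in siNC, with 20620 to 32986 counts per library. It lies at 41966741 to 41977731 on the plus strand of chromosome 17. In siNC replicates 1 to 6 it stood at 272, 267, 278, 266, 261 and 265 CPM. For siZCC the 6 values were 277, 248, 269, 275, 261 and 273 CPM. Only siZCC replicate 2 lay well below the siNC range, and siZCC replicate 5 lay just below it (261.12 against a lowest siNC value of 261.45 CPM). The log2 fold change was -0.0062 (SE 0.0297, 95% interval -0.06 to 0.05; adjusted p 0.912 in edgeR's quasi-likelihood test), the smallest SE of the 8 genes tested. CNP shares 401 exon bases, on the opposite strand, with DNAJC7, a chaperone gene with 96.9 ± 2.30 CPM in siNC against 88.6 ± 1.70 in siZCC (SD, n = 6 each).

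MBP, a structural protein of compact myelin (chromosome 18, 76978827 to 77133683, minus strand), had 95 to 158 counts per library in siNC and 71 to 115 in siZCC. Its level was 1.41, 1.03, 0.920, 1.12, 0.933 and 0.816 CPM in siNC replicates 1 to 6. Those of siZCC were 0.980, 1.06, 1.28, 0.947, 0.923 and 0.880 CPM. All siZCC libraries lay within the siNC range. The log2 fold change was -0.03 (SE 0.131, 95% interval -0.29 to 0.23; adjusted p 0.903 in edgeR's quasi-likelihood test). Counts per gene do not separate Golli from myelin transcripts. An antisense gene, AC093330.1, shares 1630 exon bases with MBP and stood at 0.291 ± 0.0730 CPM in siNC (SD, n = 6).

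**Figure D4:**
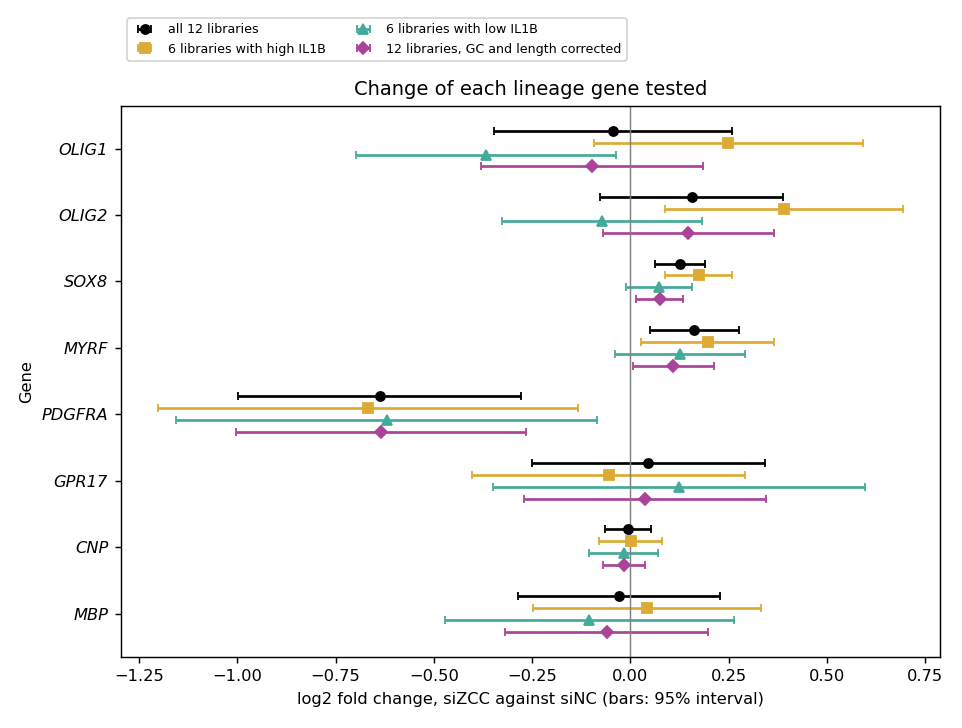
Log2 fold change, siZCC against siNC, of the 8 genes tested, with 95% intervals, in all 12 libraries, in the 6 with high or low IL1B, and with the GC and length correction. PDGFRA lay near -0.6 in each fit, CNP near 0, and OLIG1 on opposite sides of 0 in the high and low IL1B libraries.

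Genes whose library-to-library pattern was most like each member were looked up among 16363 or 16364 genes whose mean CPM was 1 or more, by Pearson's r of deviations from the group mean over 12 libraries. These are the highest of very many values and carry no test. They were TSKU (0.963) and SMOX (0.960) for CNP, ENG (0.929) and DCAF5 (0.926) for SOX8, and TP53I13 (0.949) and CC2D1A (0.948) for MYRF. For OLIG1 they were FBXL7 (0.912) and SHC2 (0.900), and for OLIG2 PIGO (0.929) and MFGE8 (0.910). The r of OLIG1 with OLIG2 itself was lower than each of these. For PDGFRA they were LTBP2 (0.948) and BFSP1 (0.898), for MBP SSC5D (0.879) and CGNL1 (0.860), and for GPR17 LRAT (0.875) and SMPDL3A (0.866).

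Genes of the wider lineage were read from lists, each against the 22.2% called over all genes. Of 17 precursor markers, all tested, 8 were higher and 0 lower, or 47.1%, and 9 did not pass, with a median log2 fold change of 0.21. PDGFRA, which precursors carry and which fell, stands among the 9 lineage genes and is not one of the 17. The share called was similar or higher in several lists of other cells. It was 44.4% for astrocyte markers and 50% each for neuron and neural progenitor markers. For fibroblast and pericyte markers it was 54.5%, and for Schwann cell and neural crest markers 60%. The share was lower for ventral progenitor and motor neuron markers, at 11.1% of 9 tested, and for microglia markers, at 0% of 4 tested. Of the 17 precursor markers, 8 were higher and 1 lower (MEGF11, named after its value was seen) at an unadjusted p under 0.05. DESeq2 called 8 and 1, limma voom 8 and 0, and the fit with the GC content and length correction 7 and 1. BCAN (brevican, a proteoglycan of the brain matrix) was at 800 to 946 CPM in siNC (median 880) and 1138 to 1685 CPM in siZCC (median 1370). It rose by 0.65 (log2 fold change, SE 0.0669). PTPRZ1, a receptor phosphatase, was at 1116 to 1592 CPM in siNC (median 1407) and rose to 1725 to 1840 CPM (median 1791). SMOC1, a secreted calcium-binding protein, rose by 0.31 (SE 0.0404), and VCAN (versican) by 0.31 (SE 0.0516). In these 4 genes all siZCC libraries lay above all siNC libraries, and the adjusted p of edgeR's quasi-likelihood test was at most 4.80e-04. They were named for the smallest p or highest level in the list, so their separation is no added evidence. The groups overlapped in the other precursor markers and were fully apart in 9.74% of all genes tested. The libraries with high IL1B alone gave 6 calls in this list and those with low IL1B gave 5, all higher. BCAN, PTPRZ1, SMOC1 and VCAN are also made by radial glia or astroglia. The others called higher, named after their values were seen, were LHFPL3 (0.39), C1QL1 (0.26), CSPG5 (0.25) and PCDH15 (0.21). Of 10 astrocyte markers 9 were tested, and 3 were higher and 1 lower (1 and 0 within high IL1B libraries, 0 and 0 within low ones), with a median of 0.05 and a summed level of 2192 to 2531 CPM in siZCC, and none was at 0 in all libraries. The part of astroglia in the 8 calls among precursor markers was not tested.

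In the astrocyte list SLC1A3, a glutamate transporter, rose by 0.30 (SE 0.0526), ALDH1L1 by 0.42 (SE 0.121), as did FGFR3 (0.12, named after its value was seen), and AQP4, the water channel, fell by 0.21 on the log2 scale (SE 0.0575). GFAP stood at 615 ± 81.9 and 653 ± 128 CPM and GJA1 at 499 ± 37.8 and 480 ± 31.0 CPM (SD, n = 6 each), and neither passed. Of 10 neural progenitor markers 3 were higher and 2 lower (median 0.03): SOX2 rose by 0.20 (SE 0.0280), HES5 and PAX6 (0.15, named after its value was seen) rose too, while FABP7 fell by 0.31 and MKI67, a marker of dividing cells, by 0.52 on the log2 scale. VIM and NES, the intermediate filaments of progenitors, did not pass (adjusted p 0.717 and 0.799 in edgeR's quasi-likelihood test). Of 10 neuron markers 1 was higher and 4 lower (median -0.11), with DCX, GAP43, STMN2 and ELAVL4 lower and SYT1 (0.12, named after its value was seen) higher. MAP2 stood at 1027 ± 104 and 1033 ± 55.7 CPM (SD, n = 6 each) and did not pass. Without siNC replicate 3 the neuron list had 2 calls, without siNC replicates 1 or 2 or siZCC replicates 4, 5 or 6 it had 3, and within either IL1B side 1.

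Of 16 regulators of the lineage 15 were tested (NKX2-2 was below the filter) and 5 were higher and 0 lower, or 33.3%, with a median of 0.08. At an unadjusted p under 0.05 there were 6 higher and 1 lower, and DESeq2 and limma voom each called 5 higher and 0 lower. With the GC content and length correction 6 regulators were called higher and 1 lower. Leaving out siNC replicate 3 or siNC replicate 5, each in turn, gave 5 higher and 1 lower. NKX6-2, a homeobox factor of ventral progenitors and of mature oligodendrocytes, had the largest change among the called ones. It was at 19.2 to 22.8 CPM in siNC (median 21.6) and 29.4 to 36.6 CPM in siZCC (median 34.3), a log2 fold change of 0.66 (SE 0.0492; adjusted p 3.39e-07 in edgeR's quasi-likelihood test). HES5, a Notch target, rose by 0.35 (SE 0.0790), and ID2 (0.25) and SOX6 (0.21), named after their values were seen, rose too. In the low IL1B libraries 1 regulator was called, in the high ones 4. ID4, SOX9 and NKX6-1 had the highest CPM of the list and did not pass (log2 fold changes 0.03, 0.05 and 0.08; adjusted p 0.528, 0.352 and 0.154). Of 13 markers of ventral progenitors and motor neurons, which use OLIG1 and OLIG2 as well, 9 were tested and 0 were higher and 1 lower, NKX2-1 (-0.27, SE 0.0751), with a median of -0.09. NKX6-2 is counted among the regulators and not in this list, and within either IL1B side 0 genes of the list were called higher and 0 lower. At an unadjusted p under 0.05 there were 0 higher and 2 lower. CHAT (-0.16, adjusted p 0.0693) and DLX1 (-0.07, adjusted p 0.306) did not pass with edgeR, and DESeq2 called 2 genes of this list, both lower.

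Of 8 markers of committed precursors 7 were tested, with 2 higher and 1 lower and a median of 0.07. The share called was 42.9% of the 7 tested, beside 22.2% of all genes tested. SIRT2, a deacetylase abundant in myelin, rose by 0.30 (SE 0.0396), from 108 to 126 CPM to 133 to 153 CPM. ITPR2, a calcium channel of the endoplasmic reticulum, rose by 0.46 (SE 0.0897), and TNS3, a focal adhesion protein, fell by 0.17 on the log2 scale. In the low IL1B libraries 1 of the list was called, in the high ones 2, all higher. FYN, a kinase that acts in myelination and in neurons, stood at 218 ± 5.63 and 223 ± 3.77 CPM (SD, n = 6 each) and did not pass (adjusted p 0.405 in edgeR's quasi-likelihood test).

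Of 30 mature myelin genes only 19 reached the filter, with 6 higher and 3 lower and a median of 0.12 (4 and 2 within the high IL1B libraries, 3 and 2 within the low ones). The share called was 47.4% of the 19 tested, beside 22.2% of all genes tested. The 11 below it were MAG, MOG, MOBP, OPALIN, ASPA, KLK6, GJB1, FA2H, TMEM125, NINJ2 and EVI2A. ERMN (ermin, a cytoskeletal protein of myelinating cells) fell most, by 1.06 on the log2 scale (SE 0.138; adjusted p 5.01e-05 in edgeR's quasi-likelihood test). It was at 3.82 to 6.33 CPM in siNC (median 5.58) and 2.10 to 3.12 CPM in siZCC (median 2.34). HAPLN2, a link protein of nodes of Ranvier, rose by 0.49 (SE 0.0636), and ENPP2 (autotaxin) by 0.30 (SE 0.0299), from 45.9 to 49.5 CPM to 55.8 to 61.9 CPM. TMEM63A rose by 0.12 (SE 0.0378). The other 2 genes that fell, named after their values were seen, were MAL (-0.27) and LPAR1 (-0.25).

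Markers of Schwann cells, neural crest and melanocytes were read as well, since SOX10 and MBP serve there too. Of 19 genes 15 were tested, with 4 higher and 5 lower and a median of -0.12, and the summed level was 166 to 188 CPM in siNC and 191 to 231 CPM in siZCC. None was at 0 in all libraries, and the high IL1B libraries gave 3 higher and 2 lower, the low ones 1 and 1. PMP2, a fatty acid-binding protein of peripheral myelin and of astroglia, rose by 0.84 (log2 fold change, SE 0.0733), from 48.1 to 59.9 CPM to 83.3 to 115 CPM. ERBB3, the neuregulin receptor, rose by 0.35 (SE 0.0613). NGFR fell by 0.68 on the log2 scale (SE 0.0589) and PMP22, a protein of compact peripheral myelin, by 0.29 (SE 0.0684). Named after their values were seen, PMEL (0.30) and PRX (0.18) were the others that rose, and EGR2 (-0.37), POU3F1 (-0.32) and MITF (-0.21) the others that fell. TFAP2A stood at 10.9 ± 0.860 and 10.7 ± 1.23 CPM (SD, n = 6 each) and did not pass.

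**Figure D5:**
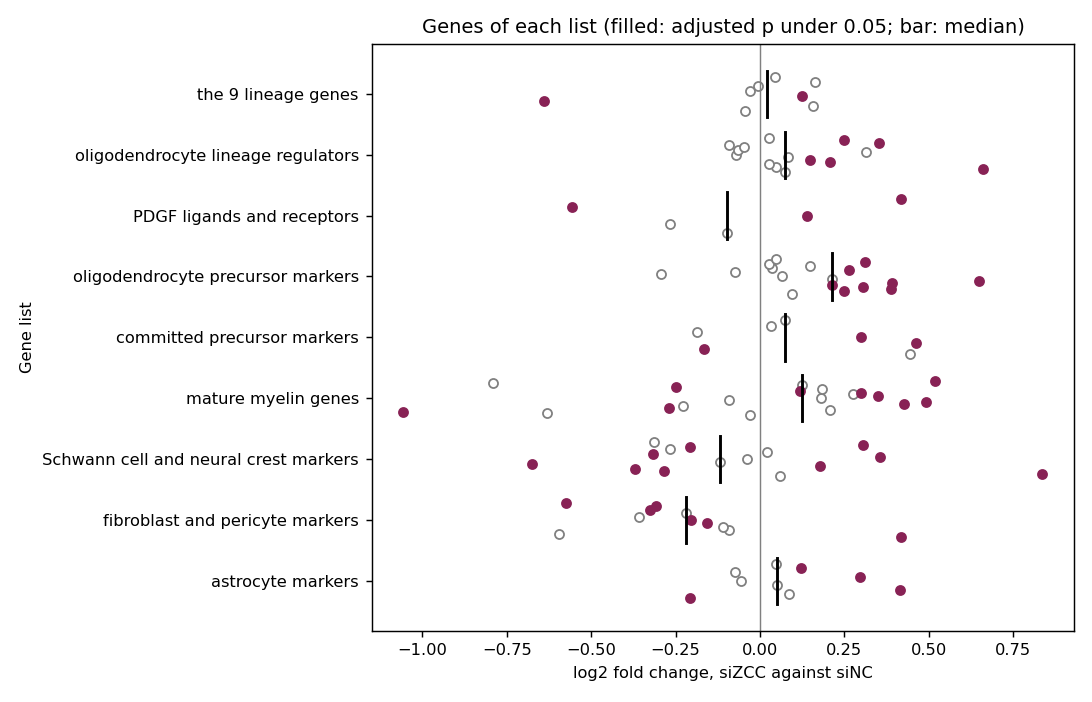
Log2 fold change, siZCC against siNC, of the tested genes of each list; filled points passed an adjusted p under 0.05 and the bar is the list's median. The 8 filled points among precursor markers, a list without PDGFRA, lie above 0, while the 9 lineage genes have 1 filled point on each side.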

How the data were processed

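Whole-number counts by gene symbol were deposited by the authors in a single table, with a column for each library, and the libraries were made from total RNA with a directional kit, per the labels. The submitters' processing notes name bcl2fastq 2.17, STAR 2.7.6a, featureCounts 2.0.1 and GRCh38; the annotation and strand setting are not given in the sources used here, so reads of overlapping genes may be shared. Counts were analysed in R 4.3.3 with edgeR 4.0.16: filterByExpr defaults (24671 genes kept), TMM scaling, quasi-likelihood test over all 12 libraries without covariates, Benjamini-Hochberg adjustment over all genes kept, threshold 0.05. The standard error is the log2 fold change divided by the square root of F, and intervals are normal 95% intervals. Groups and replicate numbers came from the titles. Alternatives used limma 3.58.1, DESeq2 1.42.0, other scalings, filters and blocks; a GC content and length correction was added after seeing the data. The test was also run on counts simulated from means and dispersions of these data. That simulation left out the IL1B kinds of library, so it cannot show how the test behaves with them. Permutation p-values of pairs used 100000 permutations within groups (Python 3.11.15), two-sided, at log2(CPM + 0.1). Pairs of libraries of a group all differed by more than sampling noise, with a chi-square of 5.17 to 25.9 for each degree of freedom. The members and lists were chosen with earlier results of these data known. The text names all 9 members, ZCCHC17, the 3 smallest p-values and 3 highest levels of each other list, and the 2 most alike genes of each member tested; the 9 microglia markers were not named singly, with 0 of the 4 tested called by edgeR, DESeq2 or limma voom and 0 at an unadjusted p under 0.05. Genes named after their values were seen are given as such. Some genes that the rule names are not reported here. Of the list genes, 5 stand in 2 lists.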

Additional observations from a re-analysis of the deposited data

Results flagged for a closer look

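Spread within groups was examined for the 9 genes and the library total, 20 groups of 6 in all. In 2 of these an extreme library was separated from the next one by more than 0.625 of the span of its group. For normally distributed values chance gives this in about 1 of 20 groups. The few counts of SOX10, some of them equal, are not such values, so this rate need not hold for SOX10. For SOX10, siNC replicate 3 stood at 0.0675 CPM (8 counts) while the other 5 reached at most 0.0172 CPM, a separation of 0.746 of the span. For the library total, siNC replicate 4 was lowest at 90755953 counts and the next lowest held 109973707, a separation of 0.657 of the span.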

How the results depend on the processing

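Counting depth limits SOX10, PDGFRA and GPR17 most, and PDGFRA was not tested where a mean count of at least 50 was required. Fits of 6 libraries use fewer samples: with high and low IL1B, 2043 and 1602 genes were called against 5481, and 1 and 0 of the 9 lineage genes against 2. In the low IL1B libraries 1 of the lineage regulators, 5 of the precursor markers, 1 of the committed precursor markers and 5 of the mature myelin genes were called. The GC content and length correction, chosen after seeing the data, left 1 lineage gene, PDGFRA. In the high IL1B libraries the log2 fold change turned to 0.25 for OLIG1, 0.042 for MBP, 0.0017 for CNP and -0.055 for GPR17, and in the low ones to -0.073 for OLIG2, none of them called, and the cause was not tested. Leaving out each library in turn gave 4485 to 5626 genes, 2 to 3 lineage genes, and log2 fold changes of -0.18 to 0.041 for OLIG1, -0.11 to 0.081 for MBP, -0.020 to 0.014 for CNP and -0.054 to 0.13 for GPR17. The titles link same-numbered libraries of the 2 groups by the number alone. Over all genes tested, their deviations correlated at -0.077 to 0.018. Each same-numbered pair joined a library with high IL1B and one with low IL1B, and whether such pairs share more was not tested. A replicate block gave 4902 calls, 2 of them lineage genes. Upper quartile scaling gave 46.4% of calls higher against 51.4%.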
